A study of Mus musculus with 15 samples.

Results

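The erythroid genes described here are Alas2, Slc4a1, Epb42, Hba-a1 and Bpgm, 5 genes of the red cell lineage measured in whole heart, of 18194 genes that the array names by a probe set of their own. Every probe set that the array's annotation gives to exactly 1 of these symbols was taken, which made 10 probe sets of the 45101 in the table: 1 for Alas2, 3 for Slc4a1, 2 for Epb42, 1 for Hba-a1 and 3 for Bpgm. The genes were chosen with their difference between the genotypes in these hearts already known, so that difference is given as a description. Their calls in the fit over the whole table are counted below, but are not read as evidence of a difference.

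Total RNA of whole hearts was measured on 1-colour Affymetrix arrays, 1 array per mouse, in 15 male mice. The labels give 10 weeks for every sample. A group of 8 control mice was compared with a group of 7 mice heterozygous for Lmna H222P, an amino acid substitution in the gene for the nuclear lamins A and C. The labels state no strain, litter, perfusion or batch, and only number the mice of each group. A p-value here therefore sets a difference against the spread from mouse to mouse and array to array, and precision is limited by how many arrays there were.

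Red cells are made in the bone marrow, and circulating ones carry no nucleus. The youngest of them, reticulocytes, still hold messenger RNA for haemoglobin, for haem synthesis and for the cell membrane, so a heart that contains blood gives such transcripts beside those of its own cells. In a bulk sample of this kind, fewer red cells and less RNA per red cell cannot be told apart. Alas2 is the erythroid form of the enzyme that opens haem synthesis. Slc4a1 encodes band 3, the anion exchanger of the red cell membrane, and Epb42 encodes protein 4.2, which binds band 3 to the membrane skeleton. Hba-a1 encodes an alpha chain of adult haemoglobin. Bpgm makes the bisphosphoglycerate that lowers the affinity of haemoglobin for oxygen, and its enzyme family also has members in other tissues.

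Promoters of erythroid genes are known for GATA motifs, bound by GATA1, and for CACCC boxes, bound by KLF1. RefSeq windows of 300 bases (250 before the gene start and 50 after it, assembly GRCm38.p6) were matched for 4 of the 5 genes. Windows of Alas2, Hba-a1 and Bpgm are shown because the signals of these 3 genes are set against each other below and their windows differ in both motifs. Each is written on the strand of its gene, and capitals mark the GATA hexamers (AGATAA or AGATAG or TGATAA or TGATAG) and CACCC on either strand. No marked match overlaps another.
Alas2 (chrX:150547167-150547466, plus strand): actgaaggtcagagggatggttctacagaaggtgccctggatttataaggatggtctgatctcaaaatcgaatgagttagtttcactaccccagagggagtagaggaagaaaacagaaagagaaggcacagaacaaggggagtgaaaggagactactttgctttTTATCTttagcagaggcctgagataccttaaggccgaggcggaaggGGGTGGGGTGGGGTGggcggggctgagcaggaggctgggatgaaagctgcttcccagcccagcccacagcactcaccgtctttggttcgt
Hba-a1 (chr11:32283422-32283721, plus strand): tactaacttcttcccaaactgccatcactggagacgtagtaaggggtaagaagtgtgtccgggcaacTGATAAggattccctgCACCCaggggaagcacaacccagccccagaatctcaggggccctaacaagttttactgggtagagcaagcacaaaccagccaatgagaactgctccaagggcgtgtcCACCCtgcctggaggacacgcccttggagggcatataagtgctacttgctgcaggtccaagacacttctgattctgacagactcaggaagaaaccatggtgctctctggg
Bpgm (chr6:34476106-34476405, plus strand): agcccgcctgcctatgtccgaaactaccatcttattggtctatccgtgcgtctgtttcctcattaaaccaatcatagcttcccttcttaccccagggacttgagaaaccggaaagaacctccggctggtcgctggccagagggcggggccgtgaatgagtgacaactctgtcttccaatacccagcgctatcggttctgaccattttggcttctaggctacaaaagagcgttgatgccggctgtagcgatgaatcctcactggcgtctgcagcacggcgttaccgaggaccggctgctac

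The Alas2 window held 1 GATA hexamer, AGATAA read on the minus strand, and 3 adjoining CACCC matches, also on the minus strand. The Hba-a1 window held 1 GATA hexamer, TGATAA, and 2 CACCC matches, all on the plus strand. The Bpgm window held 0 GATA hexamers and 0 CACCC matches, and had 3 matches to CCAAT, searched on both strands. The Epb42 window, on the minus strand of the genome at chr2:121036828-121037127, had 1 GATA hexamer and 0 CACCC matches. Of all 32851 windows, 29.8% held a GATA hexamer, 57.5% held CACCC and 37.4% held CCAAT, so a single match of each is common. Matches numbering 2 or more were held by 7.77%, 25.7% and 11.7%. The share with 3 was not counted. The Hba-a1 and Hba-a2 windows were identical over all 297 bases that they share once shifted by 3 bases, and array probes for such near-identical genes can read both.

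Most signals of the erythroid genes were lower in heterozygous hearts. The group mean of log2 signal was lower in 9 of the 10 probe sets. Testing required a log2 signal above 4 on 7 or more of the 15 arrays. The tested ones were 7, from 4 genes, and the other 3 were Slc4a1 1431743_a_at and both of Epb42. The tested probe set nearest to that limit was Hba-a1, above a log2 signal of 4 on 13 arrays. Just outside stood Epb42 1417337_at, above it on 6, and Slc4a1 1431743_a_at, above it on 5. In the limma fit over all 38870 tested probe sets, 2 of the 7 were lower at an adjusted p under 0.05, Alas2 and Slc4a1 1434502_x_at, and 0 were higher. The same test called 0.162% of all tested probe sets lower and 0.09% higher, but the genes were chosen on this contrast, so nothing is read from the comparison. That split depended on the scaling: 63 lower and 35 higher as deposited became 14 and 51 after centring arrays on their medians and 28 and 37 after quantile normalization. The count was 0 after centring each array on its median, 0 without control 2, 3, 4 or 7 or heterozygous array 4, and 3 without heterozygous array 3. Without control 1, 5, 6 or 8, or without heterozygous array 1, 2, 5 or 7, it was 1.

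**Figure D1:**
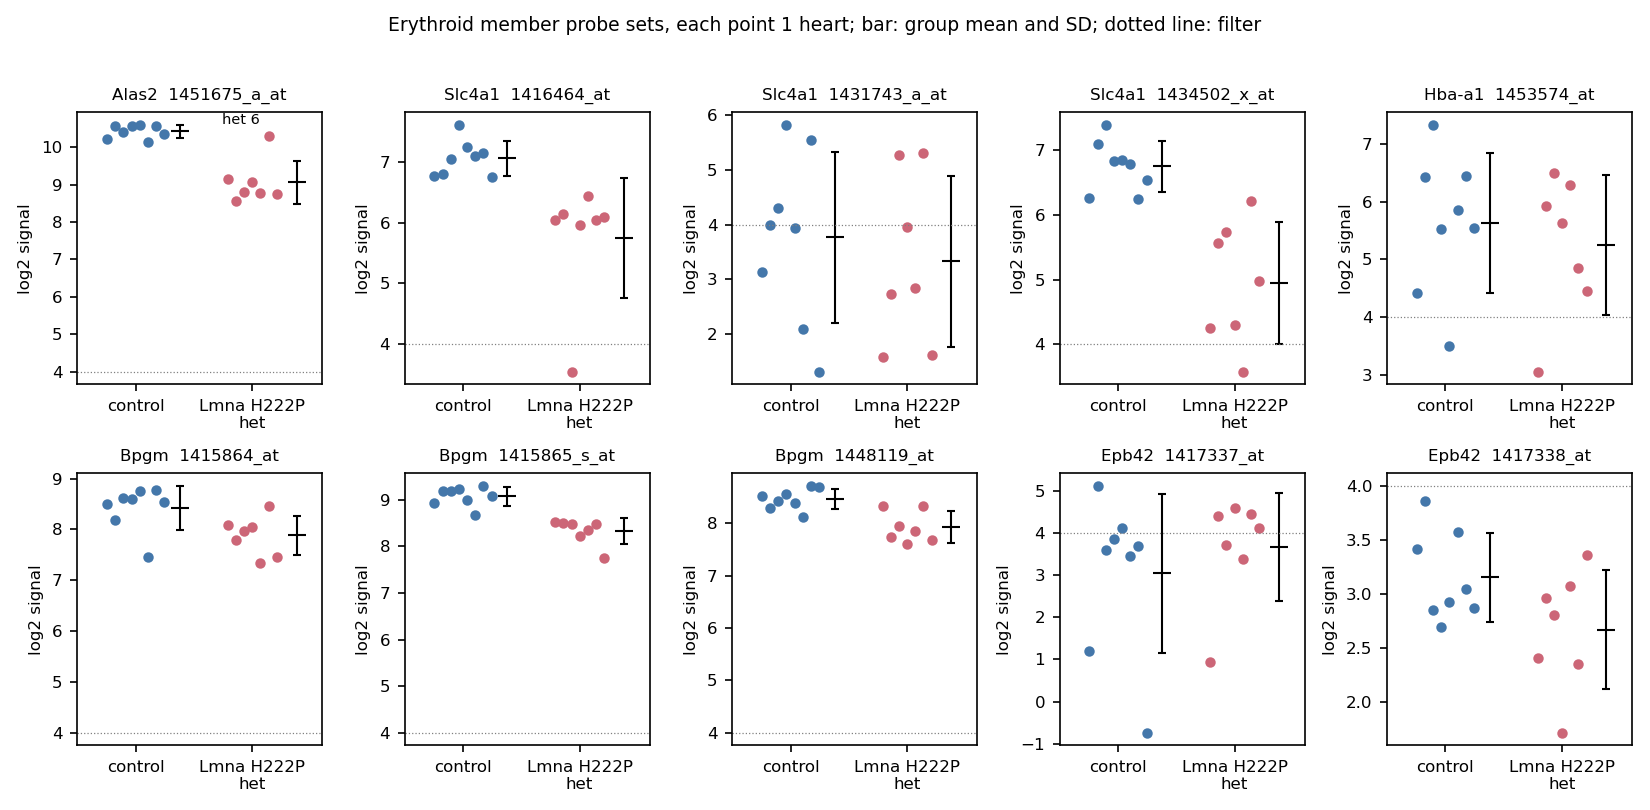
Log2 signal of the 10 probe sets of Alas2, Slc4a1, Hba-a1, Bpgm and Epb42 in 8 control and 7 Lmna H222P heterozygous (het) hearts, with 1 panel per probe set and its own vertical scale. Each point is 1 heart, the bars give the group mean and SD, and the dotted line is the filter at a log2 signal of 4. Groups are apart for 3 probe sets, those of Slc4a1 1416464_at and 1434502_x_at and of Bpgm 1415865_s_at, and Alas2 is apart but for heterozygous array 6.

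Alas2 had the smallest spread among control hearts of the 10 probe sets and a broad one among heterozygous hearts. Its signal in control hearts ran from 1116.7 through a median of 1434 to 1536.7 units. In heterozygous hearts it ran from 377.3 through a median of 444.9 to 1253.6. The highest heterozygous value belonged to array 6, which lay inside the control range, while the next was 570.1. Thus 6 of the 7 heterozygous hearts were below the lowest control. The difference of the log2 means, heterozygous minus control, was -1.37 (SE 0.22), and it was -1.57 without heterozygous array 6. The control SD was 0.18 (n = 8) and the heterozygous SD 0.58 (n = 7), both on the log2 scale.

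Alas1, the form of the same enzyme that all tissues use, was not called different. Its brighter probe set ran from 2459.3 through 2691.05 to 3385.4 in control hearts and from 1610.9 through 2746.6 to 3595.3 in heterozygous hearts. The groups overlapped across nearly the whole range, with a log2 difference of -0.13 (SE 0.18, limma's adjusted p = 0.769). A second, weaker Alas1 probe set differed by -1.74 (SE 0.49, limma's adjusted p = 0.151) and did not pass either, so the probe sets of Alas1 disagreed in size.

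Slc4a1 was weaker in signal and lower in heterozygous hearts in its tested probe sets. Probe set 1416464_at gave 108.1, 134.85 and 196.4 as lowest, median and highest control signals and 11.6, 65.8 and 87.3 in heterozygous hearts. The groups did not overlap, and heterozygous array 3 alone was near background, with the next value at 62.1. The log2 difference was -1.31 (SE 0.35) with that array and -0.94 without it. Probe set 1434502_x_at gave 75.7, 111.95 and 168 in control and 12, 31.6 and 74.6 in heterozygous hearts. These groups did not overlap either, although only narrowly, and the difference was -1.80 (SE 0.35). Setting log2 signals below 6 to 6 reduced it to -0.72, since several heterozygous signals lie below that floor. The array that was lowest in 1416464_at was not the lowest in 1434502_x_at, where heterozygous array 3 read 52.9.

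The remaining Slc4a1 probe set and both of Epb42, the partner of band 3, were near background and were not tested. Slc4a1 1431743_a_at ran from 2.5 through 15.6 to 56.6 in control and from 3 through 7.2 to 39.3 in heterozygous hearts, a log2 difference of -0.44 (SE 0.80). Epb42 1417337_at ran from 0.6 through 12.6 to 35 and from 1.9 through 17.5 to 24.4, a difference of 0.62 (SE 0.85). Epb42 1417338_at ran from 6.5 through 7.95 to 14.5 and from 3.3 through 7 to 10.3, a difference of -0.49 (SE 0.25). Groups overlapped in all 3 probe sets, and no direction is read for Epb42. Standard errors of these 3 come from the pooled SD of the probe set alone.

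Bpgm was lower by a smaller amount, and its 3 probe sets gave similar differences. Probe set 1415865_s_at ran from 406.7 through 561.65 to 629.5 in control and from 213.4 through 353.5 to 370.8 in heterozygous hearts, with no overlap and a log2 difference of -0.75 (SE 0.15). Probe set 1448119_at ran from 280.9 through 354.2 to 421.7 and from 194.9 through 230.7 to 323.6, a difference of -0.54 (SE 0.15). Probe set 1415864_at ran from 176 through 376.95 to 438.8 and from 162.5 through 250.2 to 355.5, a difference of -0.55 (SE 0.22). In these last probe sets the groups overlapped. The low control value of 176 came from control 6, with the next control at 290.6. Control 6 was also the lowest control in the other Bpgm probe sets and in Alas2. Groups that do not overlap, with the heterozygous group lower, made up 0.28% of all tested probe sets, and 3 of the erythroid ones were among them by the contrast on which the genes were chosen.

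Hba-a1 had a single probe set of its own, and its signals were weak and scattered. They ran from 11.3 through 52.2 to 162.2 in control and from 8.3 through 49.8 to 90.4 in heterozygous hearts. The groups overlapped almost entirely, and the log2 difference was -0.39 (SE 0.59), between -0.69 and -0.02 when single arrays were left out. The alpha-globin genes are also read by 3 bright probe sets annotated to both Hba-a1 and Hba-a2, and the adult beta-globin genes by 1 annotated to several beta genes. These 4 shared probe sets are outside the rule and were tested.

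The 3 brightest shared globin probe sets did not differ between the groups beyond the spread. The alpha-globin probe set 1428361_x_at ran from 19610.6 through 30246.15 to 69710.4 in control and from 12912 through 30720.6 to 38457.6 in heterozygous hearts, a log2 difference of -0.14 (SE 0.28, limma's adjusted p = 0.849). The alpha-globin probe set 1452757_s_at ran from 13735 through 18869.8 to 41634.7 and from 9649.5 through 19980.8 to 25041.9, a difference of -0.12 (SE 0.25, limma's adjusted p = 0.851). The beta-globin probe set 1417184_s_at ran from 18530.3 through 27713.65 to 58726.4 and from 13592.8 through 27360.6 to 36485.7, a difference of -0.17 (SE 0.26, limma's adjusted p = 0.797). In each, control 5 was the highest and heterozygous array 6 the lowest of the 15 arrays. Centring each array on its median turned these differences to 0.06, 0.08 and 0.03, so they have no settled direction.

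The least bright of the shared probe sets, alpha-globin 1417714_x_at, had a larger difference. It ran from 4017 through 5750.6 to 7178.6 in control and from 1809.7 through 2699.6 to 4339.7 in heterozygous hearts. The groups overlapped only at the edge, and the log2 difference was -0.99 (SE 0.21, limma's adjusted p = 0.0659), just short of the threshold. It passed with a filter at a log2 signal of 6 (limma's adjusted p = 0.033), with a trended and robust prior (0.00667) and with a floor at 6 (0.0278). Hbb-b2, a beta-globin gene, had 2 probe sets of its own, and neither passed. Its brighter one, 1427866_x_at, ran from 542.5 through 690.35 to 795.3 in control and from 163.3 through 448.4 to 661.4 in heterozygous hearts, a difference of -0.79 (SE 0.26, limma's adjusted p = 0.203). The other, 1427865_at, ran from 148.2 through 197.6 to 305.6 and from 80.8 through 187.5 to 246.4, a difference of -0.42 (SE 0.25, limma's adjusted p = 0.45). Probe sets for the same globins thus gave differences from near 0 to about -1 on the log2 scale.

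The bright globin signals moved with the brightest heart muscle signals from array to array. By mean signal they ranked 10, 21 and 69 of 45037 probe sets, a rank of brightness on the array and not of transcript amount, and 1417714_x_at ranked 799. Over the 15 deviations from the group means, their correlation with the mean log2 signal of 12 ventricular muscle markers was 0.99 for 1428361_x_at (Spearman's rho 0.98), 0.99 for 1452757_s_at (rho 0.97) and 0.97 for 1417184_s_at (rho 0.91). Without the 2 arrays farthest from the median it was 0.98, 0.98 and 0.93. For 1417714_x_at it was 0.07. Of the 100 brightest probe sets, 89 had a correlation above 0.8 with the ventricular mean, and 10 of the 12 ventricular markers are themselves among those 100. The points share their array and its scaling, and whether the ventricular level, the scaling or the bright end of the signal range has a part in the flat globin signals was not tested.

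Measured against the ventricular mean of the same array, the bright globin signals varied far less. The SD of 1452757_s_at after that subtraction was 0.10 in control (n = 8) and 0.07 in heterozygous hearts (n = 7), and the heterozygous mean was lower by 0.13 on the log2 scale, -0.39 against -0.26. For 1428361_x_at the means were 0.38 ± 0.15 and 0.23 ± 0.15 (SD), and for the beta-globin probe set 0.25 ± 0.10 and 0.08 ± 0.17. These are small against the Alas2 difference of -1.37. Alas2 itself did not follow the ventricular mean in the same way, with a correlation of deviations of -0.54 over the 15 arrays, 0.30 within control and -0.97 within heterozygous hearts. Heterozygous array 6 had both the lowest ventricular mean, 13.68, and the highest heterozygous Alas2.

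**Figure D2:**
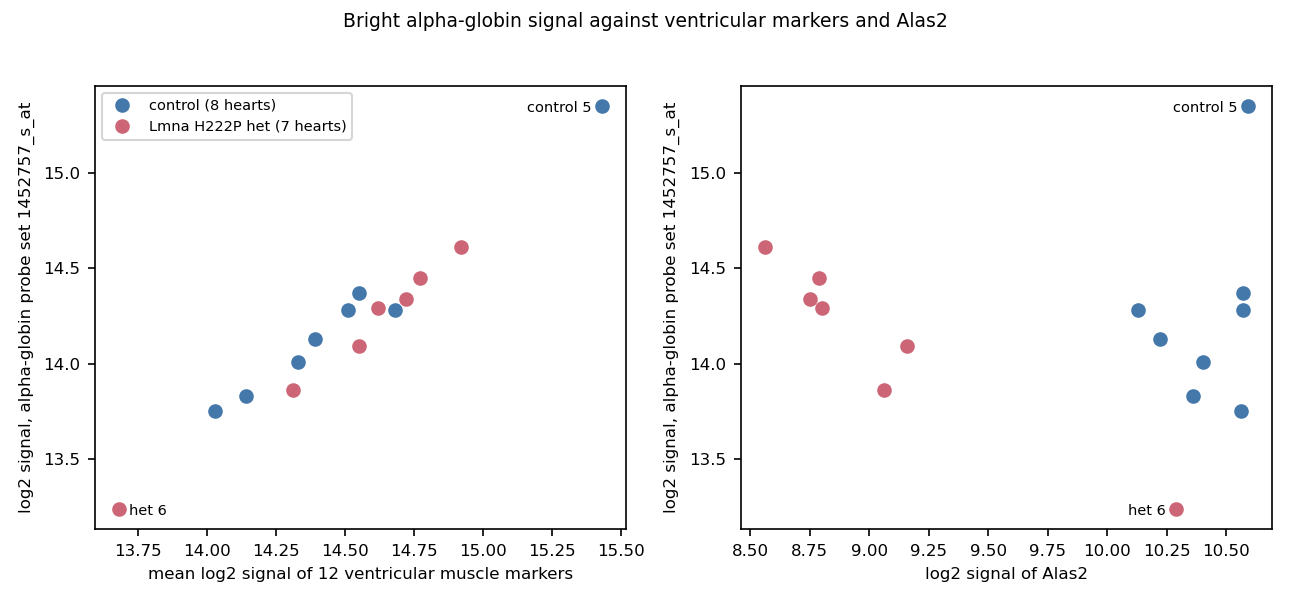
Log2 signal of the alpha-globin probe set 1452757_s_at (vertical axis) against the mean log2 signal of 12 ventricular muscle markers (left) and against the log2 signal of Alas2 (right), with 1 point per heart for 8 control and 7 Lmna H222P heterozygous hearts. The globin signal lies along a line with the ventricular mean in both groups, from heterozygous array 6 to control 5, while the groups part along the Alas2 axis but for heterozygous array 6.

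Within the groups, the 5 genes did not vary as 1 block. With the brightest probe set of each gene, the mean of the pairwise correlations of deviations from the group means over 15 arrays was 0.08, and it stayed between 0.04 and 0.15 when single arrays were left out. Without Hba-a1 and Epb42, which are weak, it was 0.13, an alternative added after seeing the data. Alas2 and Bpgm gave the highest value within the control group, 0.80 (Spearman's rho 0.52, n = 8), but 0.17 without the 2 arrays farthest from the median of Alas2, so the high value rests on those. Within heterozygous hearts it was 0.25 (rho 0.18, n = 7). Other Bpgm probe sets followed Alas2 more evenly, at 0.63 for 1415864_at and 0.61 for 1448119_at over the 15 deviations. All these values share the arrays' scaling.

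How Slc4a1 varied with Alas2 and Bpgm depended on its probe set. The deviations of 1416464_at, the brightest, correlated at 0.16 with Alas2 and at -0.11 with Bpgm 1415865_s_at. Those of 1434502_x_at correlated at 0.38 with Alas2 and between 0.07 and 0.27 with the Bpgm probe sets. Those of 1431743_a_at, which is near background, correlated at 0.49 with Alas2 and between 0.22 and 0.54 with the Bpgm probe sets. The Slc4a1 probe sets 1416464_at and 1434502_x_at correlated at -0.35 with each other, although both were lower in heterozygous hearts, whereas the 3 Bpgm probe sets correlated at 0.60 to 0.67 among themselves. The Hba-a1 probe set correlated at -0.21 with Alas2, and at -0.25 to -0.33 with the 4 shared globin probe sets, which include Hba-a1 in their annotation or its partner beta genes.

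Genes whose deviations were most like the mean of the 5 genes were named by correlation over the 15 arrays. The deviations were not scaled, so the mean follows Epb42 1417337_at (control SD 1.88, near background) and Hba-a1 (1.22) more than Alas2 (0.18). The first were Lta4h at 0.893 (19.2 units in control and 16.9 in heterozygous hearts) and Lpar3 at 0.888 (14.2 and 44.4), both weak. Next were Tlcd3b at 0.829 (51.6 and 35.6), Haus2 at 0.813 (142 and 134) and Pde6c at 0.803 (25 and 15.5). Then came Tmem151b, Erp44, Oprl1, Sf3b2 and Ears2, between 0.792 and 0.782. None of these 10 belongs to the erythroid lists or passed the genotype test. When the mean was taken over Alas2, Slc4a1 and Bpgm alone, an alternative added after seeing the data, the first 10 shared 0 genes with these. That second list was led by Gss, the glutathione synthetase, at 0.853 and also held Car2, a red cell carbonic anhydrase, at 0.798. With Alas2 alone, Car2 correlated at 0.32 and Car1, another red cell carbonic anhydrase, at -0.68.

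Likeness to Alas2 alone was also measured for the other erythroid genes. The median correlation of deviations was 0.19 over 77 of them, and -0.04 over all 38869 other tested probe sets. Each of the 77 genes is represented by its brightest tested probe set, whereas the 38869 hold every probe set of a gene. These are unlike bases, so the gap between them is not read as a result. Values above 0.5 were seen for 7 of the 77, or 9.09%, and for 2.91% of all probe sets. The 7 were Cited2 at 0.60, Ank1 at 0.58, Stat5a, Tmod1 and Fech at 0.53, Slc11a2 at 0.52 and Ube2o at 0.51. Ank1, the ankyrin that ties band 3 to the red cell membrane skeleton, had 0.76 within control, 0.56 within heterozygous hearts and 0.65 without heterozygous array 6. Its control signal of 3420 units was far above the 134 of Slc4a1 1416464_at, and which cells gave it was not tested. Without heterozygous array 6 the others all fell below 0.5. Stat5a went from 0.53 to 0.17, Ube2o to 0.24, Slc11a2 to 0.34, Cited2 and Tmod1 to 0.46 and Fech to 0.47. The share above 0.5 thus leans on that array, and the share of all probe sets without it was not taken. The genes most like Alas2 over all probe sets were led by Lmf1, Diablo and C1qtnf6 at 0.82 and also held the matrix genes Col6a3 and Col1a1. In each of the first 10, heterozygous array 6 was the highest of the heterozygous hearts.

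Of 94 other genes in 6 erythroid lists, 77 were tested, and 0 passed over all probe sets in either direction by limma at an adjusted p under 0.05. At an unadjusted p under 0.05 there were 19, beside 15.2% of all genes tested. The exact rank sum test gave 0 after adjustment, but it also gave 0 over all probe sets, so nothing is read from it. The limma test, with 1 probe set per gene, called 0.186% of 16627 genes lower and 0.102% higher. The log2 difference was below 0 in 51 of the 77, or 66.2%, with a median of -0.19, beside 58.5% and a median of -0.08 for all genes tested. Setting the filter or a floor at a log2 signal of 6, or a trended and robust prior, gave 2 lower genes, Steap3 and Slc25a37. The hearts were measured whole, so which cells gave the signals of the listed genes was not tested.

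The haem synthesis and mitochondrial iron genes, the pathway of Alas2, were below 0 in 11 of 14, with a median of -0.21, none past the threshold and 5 at an unadjusted p under 0.05, which 15.2% of all genes reached. Slc25a37, which carries iron into mitochondria, had geometric means of 426 units in control and 242 in heterozygous hearts, a log2 difference of -0.82 (SE 0.19, limma's adjusted p = 0.0885). Its partner Abcb10 had 666 and 404 (-0.72, SE 0.27, limma's adjusted p = 0.25). Cpox, a late enzyme of haem synthesis, had 636 and 393 (-0.70, SE 0.23, limma's adjusted p = 0.2). Values of the pathway ran from -0.82 to 0.34, all nearer to 0 than that of Alas2.

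Among genes of the membrane and its skeleton, the group of Slc4a1 and Epb42, 14 of 19 had a difference below 0, with a median of -0.20, none past the threshold and 3 at an unadjusted p under 0.05, a share near the 15.2% of all genes. Stom, the membrane protein stomatin, had 2010 and 1320 units (-0.61, SE 0.18, limma's adjusted p = 0.163). Rhag, the Rh-associated glycoprotein, was weak at 39.5 and 14.9 (-1.41, SE 0.62, limma's adjusted p = 0.314). Ank1 had 3420 and 2720 (-0.33, SE 0.15, limma's adjusted p = 0.324), and its 4 tested probe sets ran from -0.38 to 0.34.

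The red cell enzymes and late maturation genes, the group of Bpgm, were below 0 in 11 of 17, with a median of -0.16. Those with the smallest p were Isg20 (315 and 201 units, -0.65), Ube2l6 (88.7 and 53.6, -0.73) and Car2 (286 and 158, -0.86), and none passed, with 6 of the 17 at an unadjusted p under 0.05 beside 15.2% of all genes. The transferrin and erythropoietin genes were below 0 in 6 of 11, with a median of -0.25 and 3 at an unadjusted p under 0.05. Fech, at -0.35, is among both the 6 and the 3. It is a haem synthesis gene, counted in that list too, and the median without it was not taken. Of the transferrin and erythropoietin genes, Steap3, the ferrireductase of transferrin iron uptake, came nearest to the threshold. It had 195 and 111 units (-0.82, SE 0.17, limma's adjusted p = 0.0636). Tfr2, a transferrin receptor, had 234 and 146 (-0.68, SE 0.23, limma's adjusted p = 0.203).

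The erythroid transcription factors were evenly split, with 7 of 14 below 0 and a median of -0.05. Gfi1b had 46.7 and 19.5 units (-1.26, SE 0.48, limma's adjusted p = 0.264). Gata1, the main factor of the lineage, had 93.3 and 67.3 (-0.47, SE 0.19, limma's adjusted p = 0.289). Cited2, next by p, went the other way, with 1400 and 1730 (0.31, SE 0.15, limma's adjusted p = 0.361). Of the globin genes with a probe set of their own, 3 were tested and all were below 0, none past the threshold. Hba-x and Hba-a2 were weak there, with differences of -0.19 and -0.02.

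**Figure D3:**
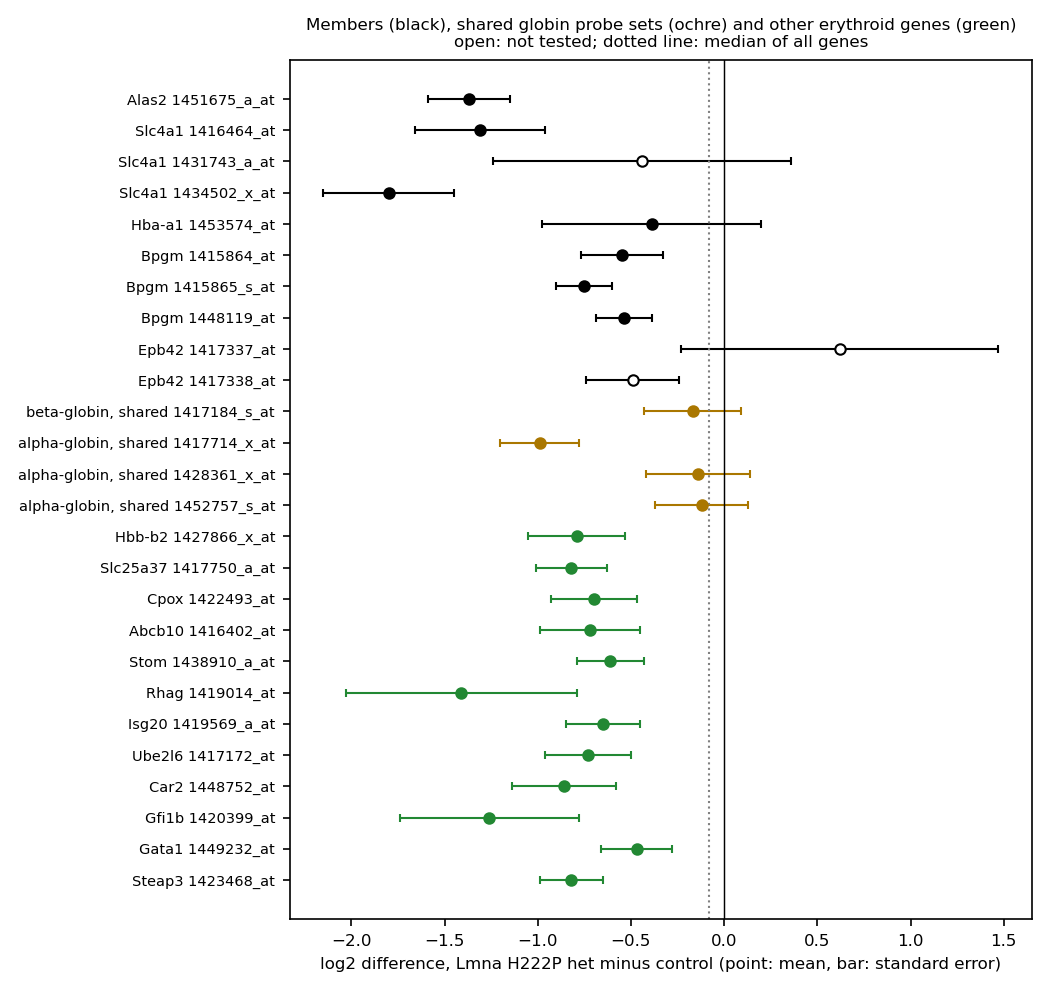
Log2 difference between Lmna H222P heterozygous and control hearts (point) with its standard error (bar) for the 10 probe sets of Alas2, Slc4a1, Hba-a1, Bpgm and Epb42 (black), the 4 shared globin probe sets (ochre) and 12 other erythroid genes (green). The green genes were picked. They include those of smallest p, from Steap3 to Hbb-b2, but leave out Tfr2 and others that precede Gata1 by p. All of them lie below 0, whereas 26 of the 77 tested lay above 0. Open points were not tested, and the dotted line is the median of all genes, -0.08. Alas2 and the tested Slc4a1 probe sets lie beyond -1.3, the Bpgm probe sets between -0.75 and -0.54, and 3 of the shared globin probe sets between -0.17 and -0.12.

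Markers of other blood cells were set beside these genes, since they can enter a heart sample with the same blood. All 13 platelet markers tested were below 0, with a median of -0.61, and 3 passed the threshold: Ppbp (-1.97, SE 0.21, limma's adjusted p = 0.00117), Tubb1 (-1.46, SE 0.21, limma's adjusted p = 0.0108) and Clec1b (-1.33, SE 0.22, limma's adjusted p = 0.0255). Over all genes, 0.186% were called lower. Pf4, the brightest of the platelet markers at 1380 units in control and 1230 in heterozygous hearts, differed by -0.18 (SE 0.24, limma's adjusted p = 0.776). Plek was at -0.01, so the size of the difference varied widely within the list. The marker lists were chosen with earlier results of these data known, so their calls are a description. With arrays centred on their medians, Clec1b missed the threshold (limma's adjusted p = 0.0689). The summed signal of the platelet list ran from 2377.3 to 3464 units in control and from 1354.9 to 3153.8 in heterozygous hearts. Neutrophil markers had 0 of 11 past the threshold and 4 at an unadjusted p under 0.05, and their sum ran from 545.6 to 924.3 and from 407.7 to 5635.8. Lymphocyte markers had 0 of 11 and 1 unadjusted, with a median of -0.27 and sums of 526.6 to 942.7 and 347.2 to 843.7. Macrophage markers had 0 of 11 and 1 unadjusted, with a median of 0.22 and sums of 7853.5 to 10556.6 and 6786.1 to 16828.3. The part of the blood content of the samples in the erythroid differences was not tested.

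Markers of the heart's own cells also moved with the groups. Atrial muscle markers had 3 of 7 higher (Sln, Myl7 and Myl4), beside 0.102% of all genes. Their median was 2.10, with sums of 6135 to 10834 units in control and 10794.3 to 41660.5 in heterozygous hearts. This list too was chosen with earlier results known, so its calls are a description. All 8 fibroblast markers were above 0, with a median of 0.33, 0 past the threshold, 4 at an unadjusted p under 0.05 and sums of 14026.6 to 18381.6 and 18933.9 to 35919.9. Ventricular markers had 0 of 12 past the threshold, 0 unadjusted and a median of 0.00, and endothelial markers had 0 of 8, 1 unadjusted and a median of 0.04. Whether the samples differ in their share of tissues, and whether that has a part in the erythroid values, was not tested.

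**Figure D4:**
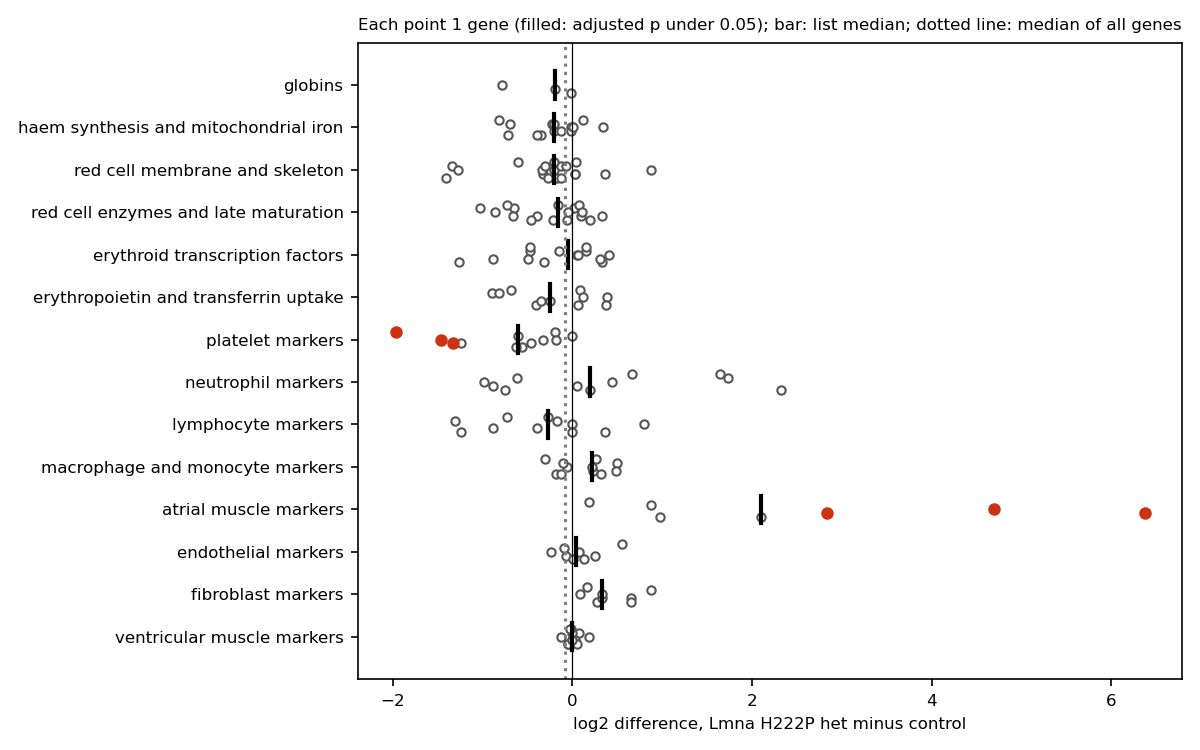
Log2 difference between Lmna H222P heterozygous and control hearts for the tested genes of 6 erythroid lists, without Alas2, Slc4a1, Hba-a1, Bpgm and Epb42, and of 8 lists of other cell types, with 1 point per gene. Fech stands in both the haem list and the erythropoietin and transferrin list. The thick bar is the median of the list, filled points passed limma's adjusted p under 0.05, and the dotted line is the median of all genes, -0.08. The 6 filled points are the platelet genes Ppbp, Tubb1 and Clec1b below 0 and the atrial genes Sln, Myl7 and Myl4 above 0, and the erythroid medians lie between -0.25 and -0.05.

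RNA quality and scaling differed between arrays as well. The ratio of the 3' to the 5' control probe sets of Actb, which grows as RNA is degraded, ran from 1.225 to 2.338 in control and from 1.26 to 3.229 in heterozygous hearts, with the highest control value in control 6 and the lowest heterozygous value in array 6. With this ratio as a covariate, the Alas2 difference was -1.18. The median over all tested probe sets was -0.11 as deposited, 0.10 after centring on array medians and -0.02 after quantile normalization. Relative to those shifts Alas2 was still the lower in heterozygous hearts, at -1.16 after centring.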

How the data were processed

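The members and gene lists were chosen with earlier results of these data known. Hearts gave total RNA (RNeasy kit), which was labelled with biotin and run by the standard Affymetrix steps, per the labels' protocols. The authors deposited 1 intensity per probe set on each array, and the submitters' processing notes name GCRMA with no version. These intensities are linear, from 0.1 to 80754.9, and have a mean of 250 on each array once 2% is trimmed from both ends, as target scaling gives, so how they were summarised is not settled, and weak signals scatter widely. Array medians lay between 56.7 and 94.2 units. No scan date was used here.

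Genes came from the platform annotation: of 45101 probe sets, 34958 had 1 symbol, 932 several and 9211 none. RefSeq identifiers matched 34754 and changed 0 symbols. Signals were log2-transformed with no pseudocount. After leaving out 64 control probe sets and those not above a log2 signal of 4 on at least 7 of 15 arrays, 38870 probe sets of 16627 genes entered limma 3.58.1 under R 4.3.3 (lmFit, then eBayes; two-sided; genotype as the single term) with Benjamini-Hochberg adjustment at 0.05. The script was tested on simulated data. A gene in a list was represented by its brightest tested probe set. Named were all member probe sets, passing erythroid genes, Alas1 and the 10 genes most like the members. Up to 3 genes of smallest p per list were named too, printed for the erythroid and platelet lists. The shared globins, genes most like Alas2 alone, the second likeness list, Car1, Fech, Pf4 and Plek were named after their values were seen. Alternatives were other filters, scalings, priors, a floor, an Actb covariate, the replicate block, an exact rank sum test, an unmoderated model, the mean of a gene's probe sets and leaving out each array. Figures used matplotlib 3.10.9.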

Additional observations from a re-analysis of the deposited data

Results flagged for a closer look

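Within a group, single arrays stood far from the rest by Dixon's test, which marks about 1 in 20 groups by chance. In Alas2, heterozygous array 6 read 1253.6 units with the next at 570.1. In Slc4a1 1416464_at, heterozygous array 3 read 11.6 with the next at 62.1. In Bpgm 1415864_at, control 6 read 176.0 with the next at 290.6, and in Bpgm 1415865_s_at heterozygous array 7 read 213.4 with the next at 299.1. In Epb42 1417337_at, heterozygous array 1 read 1.9 with the next at 10.4, both near background. Control 5 stood above the other controls in the 3 brightest shared globin probe sets, at 58726.4 against 31526.1 for 1417184_s_at, 69710.4 against 33343.7 for 1428361_x_at and 41634.7 against 21166.1 for 1452757_s_at. These 3 probe sets move together, so they count as 1 observation of that array.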

How the results depend on the processing

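Alas2 and the tested Slc4a1 and Bpgm probe sets stayed lower in every alternative run, from -1.57 to -1.16 for Alas2. A floor at a log2 signal of 6 moved Slc4a1 1434502_x_at to -0.72 and Epb42 1417338_at to 0.00, and with it the co-variation of the members could not be computed, since Epb42 was then constant. The count of member probe sets past the threshold, 2 as reported, was 1 with no filter, quantile normalization or the Actb covariate, 0 after centring and by the exact rank sum test, 4 with the floor, and 0 to 3 when single arrays were left out. Other erythroid genes lower, 0 as reported, were 2 with the filter at 6, the trended and robust prior or the floor, and 1 with the unmoderated model. Cell markers, 3 higher and 3 lower as reported, were 5 higher with that prior or the floor, 1 higher with the mean of a gene's probe sets, and 0 and 0 by the rank sum test. They were 1 to 5 higher and 2 to 3 lower without single arrays.

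Over all probe sets, 63 were lower and 35 higher. Lower and higher were 117 and 75 with the filter at 6, 171 and 141 with the prior, 167 and 120 with the floor, and 0 and 0 by the rank sum test. Since that test passed no probe set at all, its counts of 0 for members, erythroid genes and cell markers decide nothing. Lower and higher were 40 and 27 with no filter, 14 and 51 after centring and 28 and 37 after quantile normalization. Both scalings thus turned the balance to more higher than lower. Without single arrays the counts ran from 7 to 98 and from 10 to 52. The shared globins 1417184_s_at, 1428361_x_at and 1452757_s_at turned to 0.03, 0.06 and 0.08 after centring. Without single arrays the last 2 ran from -0.23 to 0.04 and from -0.20 to 0.03, with values above 0 without control 5 (0.03 and 0.03) or heterozygous array 6 (0.04 and 0.02). Of the 10 genes most like the members, 0 were shared with the floor, 5 by Spearman's correlation, 0 with Alas2, Slc4a1 and Bpgm as the target, and 2 to 8 without single arrays. Causes of these moves were not tested.

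No pairing by replicate number was seen: 0 of 7 same-numbered pairs had deviations correlated above 0.1 (-0.06 to 0.06). These correlations cannot exclude a shared factor that moves few genes. With the replicate number as a block, 0 probe sets were lower and 1 higher, with 0 member probe sets and 0 cell markers past the threshold. Single weak signals near background limit the values of Epb42, Hba-a1 and 1 probe set of Slc4a1.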
